A study of Mus musculus with 9 samples.

Results

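Livers of mice without the heterochromatin protein HP1α, in which HP1γ was deleted in the liver as well, were compared gene by gene with livers of wild type mice. The comparison took every gene with a mean normalised read count of at least 10 over the 6 livers concerned, which was 13902 of the 22701 genes listed. These 6 livers, 3 labelled HP1alpha_gamma_KO and 3 labelled control, are part of a set of 9 in which RNA was sequenced. The control mice had the genotype WT, and the HP1alpha_gamma_KO mice the genotype HP1a-/-, HP1gliver-/-. All 6 had the strain background C57BL/6, 129svPas and were 5 weeks old. The other 3 livers, 2 labelled HP1alpha_KO (HP1a-/-) and 1 labelled HP1alpha_beta_KO (HP1a-/-, HP1bliver-/-), are used here only for values set beside those of the double mutant, so that no group in the set lacks HP1γ alone. The labels give each liver its own animal number. They do not name what drives the liver deletion of HP1γ, which cells of the liver it reaches, the litter, or the batch. Replicates are numbered in accession order, and values below are listed in the order of replicates 1, 2 and 3. Where values are joined by "against", those of HP1alpha_gamma_KO come first and those of the controls second.

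HP1α, HP1β and HP1γ, encoded by Cbx5, Cbx1 and Cbx3, bind histone H3 that is methylated at lysine 9 and take part in keeping chromatin compact and silent. A gene family closely tied to them encodes the KRAB zinc finger proteins. These proteins bind DNA, often in transposons, and recruit the corepressor TRIM28, which in turn brings in histone H3 lysine 9 methyltransferases and HP1. Their genes lie in clusters of near copies that themselves carry this heterochromatin in many cell types. In the liver most RNA comes from hepatocytes, which differ in their genes along the way from the portal vein to the central vein and between males and females.

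Each value is the number of reads of a gene divided by 1 size factor per library, so the values of a gene compare between libraries but not those of genes of different length. The 6 libraries held between 26375545 and 32954080 reads in genes, and mitochondrial genes took 4.30 to 5.51% of the normalised counts. The first principal component, with 34.4% of the variance, ran from -50.6 in control replicate 1 to 45 in HP1alpha_gamma_KO replicate 1, with the other 4 libraries between -7.45 and 10.7. The second, with 21.5%, set HP1alpha_gamma_KO replicate 2 at 45.6 apart. The pair of libraries closest to each other crossed the groups, control replicate 2 and HP1alpha_gamma_KO replicate 3, with a Pearson correlation of 0.983 across genes. The animal numbers of these livers follow each other. So do those of HP1alpha_gamma_KO replicate 1 and control replicate 3, and the labels do not say whether such neighbours share a litter or a day. The Y-linked gene Ddx3y was read at 3799 to 4549 in each of the 6 libraries. Xist, expressed in females, was read at 0.889 to 14.6, so by these genes all 6 livers are male.

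No gene passed the test between the groups. With limma on log2(value + 1) and Benjamini-Hochberg adjustment, 0 of 13902 genes (0%) had an adjusted p under 0.05, and the smallest adjusted p was 0.262. An unadjusted p under 0.05 was found for 923 genes (6.64%), 493 of them higher and 430 lower in HP1alpha_gamma_KO. The quasi-likelihood test of edgeR on the recovered reads also called 0 genes, with 926 at an unadjusted p under 0.05. DESeq2 on the same reads called 76, of which 46 were higher (0.331% of the genes tested) and 30 lower (0.216%). Its count ranged from 38 without control replicate 1 to 92 without control replicate 3, and was 80 without control replicate 1 and HP1alpha_gamma_KO replicate 1, the libraries at the ends of the first component. DESeq2 calls below are therefore calls of 1 of 3 tools. An exact permutation test of 3 against 3 livers cannot give a p below 0.1. A simpler measure used below is whether all 3 HP1alpha_gamma_KO livers lay above, or all 3 below, every control liver. This held for 912 genes on the higher side (6.56%) and for 973 on the lower side (7%). That split depends on the scaling. With libraries scaled to equal totals, 1240 genes lay above and 569 below, and the median log2 difference of all genes was 0.04 rather than -0.01. Among genes apart by this measure, large differences were more often upward. There were 125 genes with a log2 difference over 1 and 39 with one under -1, and 30 genes over 2 against 11 under -2.

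**Figure D1:**
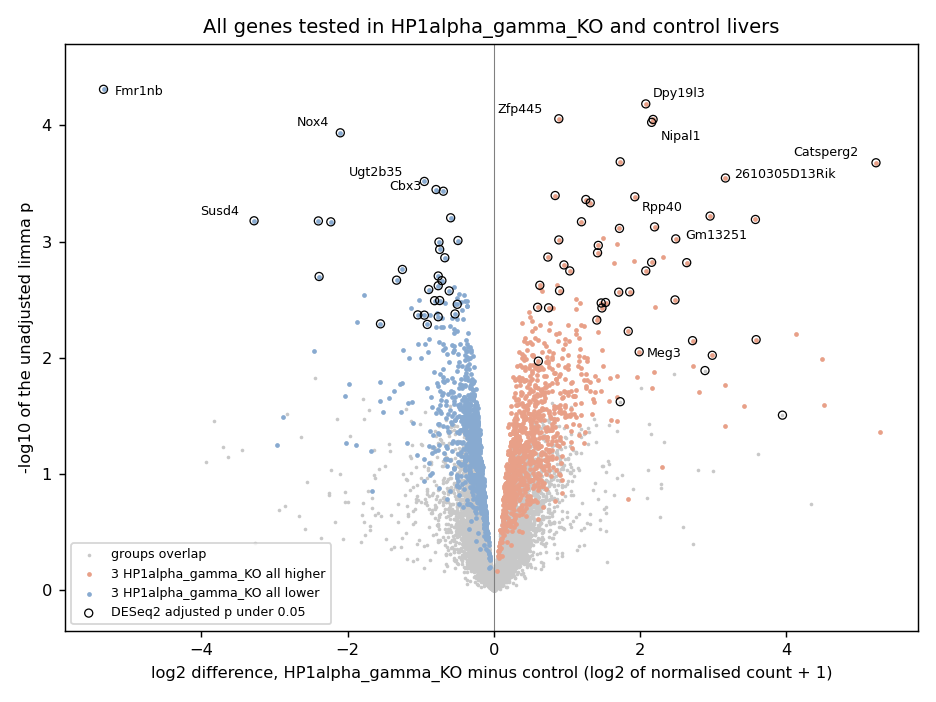
Each point is 1 of the 13902 genes tested, with the log2 difference between HP1alpha_gamma_KO and control livers on the horizontal axis and minus log10 of the unadjusted limma p on the vertical axis; black rings mark the 76 genes with a DESeq2 adjusted p under 0.05. Dpy19l3 stands highest on the right, above Zfp445 and Nipal1, and Fmr1nb on the left, followed by Nox4, and no point passed the limma threshold after adjustment.

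The targeted genes were read first, as a check of the labels. Cbx3, which encodes HP1γ, stood at 536, 639 and 641 in control livers. It stood at 380, 326 and 343 in HP1alpha_gamma_KO livers, a log2 difference of -0.79 ± 0.12 (SE, n = 3 per group; DESeq2 adjusted p = 0.000329, limma adjusted p = 0.403). All 3 mutant livers were below all controls, at 57.8% of the control mean, while the HP1alpha_KO livers at 572 and 609 and the HP1alpha_beta_KO liver at 542 were near the control values. Cbx5, which encodes HP1α, stood at 1542, 1167 and 997 in controls and 663, 813 and 753 in HP1alpha_gamma_KO (-0.71 ± 0.17; DESeq2 adjusted p = 0.0529). Its groups did not overlap either, and it was lower still in HP1alpha_KO, at 576 and 501. Reads of both genes thus remained in livers labelled as lacking them. Gene totals do not show from which part of the gene, or from which cells, these reads come. The remaining family member Cbx1, which encodes HP1β, stood at 1082, 868 and 803 in controls and 689.9, 856 and 714 in HP1alpha_gamma_KO, and the groups overlapped (-0.28 ± 0.15). Of the 37 genes in the list of HP1 partners and other heterochromatin factors, 2 (5.41%) were above and 3 (8.11%) below all controls. Beside the targeted genes these were Trim24, a corepressor that binds chromatin, at 1336, 855 and 1335 against 742, 779 and 579.6, Morc2a of the HUSH silencing pathway at 684, 639 and 666 against 613, 517 and 582, and the H3 lysine 9 methyltransferase Suv39h1 at 188, 144 and 188 against 200.1, 242 and 198. The list's median log2 difference was 0.03, and its shares were near the 6.56% above and 7% below of all genes. Neighbours of the targeted genes were also counted. Within 2 Mb of Cbx5, 2 of 39 genes tested (5.13%) were above and 3 (7.69%) below all controls, near the shares of all genes. Within 2 Mb of Cbx3, 1 of 14 (7.14%) was above and 2 (14.3%) below, shares that rest on few genes. Krt18, a keratin gene, stood at 3917, 4052 and 3782 against 3341, 3309 and 3144, and Aaas, of the nuclear pore, at 160.4, 142 and 171 against 201, 232 and 194, both near Cbx5.

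The zinc finger genes, the longest of the lists read, had the most members above all controls by number, while 5 shorter lists had a larger share. Of 348 genes in the table with a symbol starting Zfp, 314 had enough reads to be tested. The list goes by symbol alone and is not a list of KRAB zinc finger genes. Which members encode a KRAB domain was not examined. The mean of their log2 values, each gene centred over the 6 livers, was -0.11, -0.06 and -0.11 in the control livers and 0.04, 0.13 and 0.12 in the HP1alpha_gamma_KO livers, with no overlap. In 230 of the 314 the group mean was higher, and 48 (15.3%) were above all controls against 6.56% of all genes, while 8 (2.55%) were below. The median log2 difference was 0.14, and stayed between 0.13 and 0.15 when any 1 liver was left out. DESeq2 called 3 of them higher, and limma 0. Members with another Zfp gene within 500 kb, 200 in all, had a median of 0.18, with 37 (18.5%) above and 2 (1%) below all controls. The 113 members without such a neighbour had a median of 0.10, with 11 (9.73%) above and 6 (5.31%) below. The position of 1 member was not known. Other protein-coding genes had a median of -0.02. The difference between the clustered and the single members was not tested. Genes with a neighbour were read at a lower level (a median of 140.1 against 249), and clusters hold near-identical copies between which reads can be split, so single values in them are uncertain.

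The block with the largest differences was on chromosome 4 between 146 and 148 Mb (build GRCm38). It was chosen after the values were seen, and so are the other positions below. Of 831 windows of 2 Mb with at least 5 genes tested, 3 had a median log2 difference over 0.5. In this one, 9 of 17 genes tested (52.9%) were above all controls, with a median of 1.04, and DESeq2 called 8. The promoters of 3 zinc finger genes among them are shown because the genes lie near each other, are high in the same livers and have near copies of 1 sequence at their start. Each runs from 250 bases before to 50 after the start (RefSeq, GRCm38.p6), and capitals mark every base that lies in a stretch of 12 shared by all 3. The first capitals are a repeat of 4 bases, which goes on for longer in Gm13157. They are Gm13152 (chr4:147492167-147492466, plus strand, entry 2 of 3 for its RefSeq name Zfp982), 2610305D13Rik (chr4:147642459-147642758, minus strand, Zfp979) and Gm13157 (chr4:147809739-147810038, minus strand, Zfp984).
Gm13152: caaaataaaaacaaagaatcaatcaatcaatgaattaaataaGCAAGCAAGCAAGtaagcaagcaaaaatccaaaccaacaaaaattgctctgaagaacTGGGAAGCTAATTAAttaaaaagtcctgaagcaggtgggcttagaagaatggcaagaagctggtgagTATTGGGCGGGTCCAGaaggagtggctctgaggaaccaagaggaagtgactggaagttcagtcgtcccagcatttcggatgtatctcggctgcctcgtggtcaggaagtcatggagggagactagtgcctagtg
2610305D13Rik: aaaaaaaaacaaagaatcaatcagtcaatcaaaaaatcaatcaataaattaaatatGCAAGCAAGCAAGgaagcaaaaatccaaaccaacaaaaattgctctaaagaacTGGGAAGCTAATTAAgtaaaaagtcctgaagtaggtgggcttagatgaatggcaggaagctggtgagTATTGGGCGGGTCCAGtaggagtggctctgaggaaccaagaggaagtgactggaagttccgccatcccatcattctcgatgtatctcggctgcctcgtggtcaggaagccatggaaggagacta
Gm13157: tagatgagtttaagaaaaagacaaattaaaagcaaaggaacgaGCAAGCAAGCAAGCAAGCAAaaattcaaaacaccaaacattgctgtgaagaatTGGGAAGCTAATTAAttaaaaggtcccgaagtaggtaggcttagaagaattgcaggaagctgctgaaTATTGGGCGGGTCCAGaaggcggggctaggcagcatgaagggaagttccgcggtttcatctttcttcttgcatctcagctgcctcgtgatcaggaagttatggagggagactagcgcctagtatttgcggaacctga

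Gm13152 and 2610305D13Rik were identical at 269 of 313 aligned positions (85.9%), Gm13152 and Gm13157 at 232 of 316 (73.4%), and 2610305D13Rik and Gm13157 at 225 of 324 (69.4%). The shared run TATTGGGCGGGTCCAG occurred in the promoters of 9 of 27025 genes in the RefSeq table (0.0333%) and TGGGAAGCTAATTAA in 12 (0.0444%), searched on both strands, and all of these genes are on chromosome 4. For each run, 4 of the genes that hold it were tested, the 3 printed here and Gm13212, whose groups overlapped (log2 difference 0.66). The third run, GCAAGCAAGCAAG, a repeat of 4 bases, occurred in 17 genes on several chromosomes. A shared run is a feature of the sequence and not a measured binding site.

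In reads, Gm13152 stood at 63.2, 140 and 113 in controls and 283, 398 and 323 in HP1alpha_gamma_KO, a log2 difference of 1.72 ± 0.30 (DESeq2 adjusted p = 7.04e-05). Its neighbour 2610305D13Rik stood at 25.5, 74.02 and 59.6 against 3.56, 6.67 and 3.75 in controls (3.17 ± 0.47; DESeq2 adjusted p = 3.01e-05), and Gm13157 at 153, 159 and 172 against 58.7, 97.1 and 82.4 in controls (1.04 ± 0.21; DESeq2 adjusted p = 0.0134). In each of the 3 the lowest mutant liver was above the highest control, and replicate 2 or 3 rather than replicate 1 was the highest mutant. At the start of the block, Gm13251 (RefSeq Zfp992; chromosome 4, 146449023 to 146470292) stood at 252, 637 and 393 against 38.3, 101 and 89.0 in controls, and Gm13139 (Zfp991) at 72, 87.5 and 69.1 against 28.5, 33.3 and 31.8 in controls. Gm13248 stood at 21.9, 32.5 and 30.3 against 4.45, 3.81 and 8.43 in controls. Between these genes lie noncoding RNAs that were high in the same livers, the antisense RNA 4933438K21Rik at 16.4, 56.1 and 39.7 against 2.67, 5.71 and 8.43 in controls and the long noncoding RNA Gm26624 at 41.01, 118 and 103 against 16.01, 22.9 and 15.9 in controls. Gm26624 overlaps Gm13139 on the same strand, so their reads cannot be told apart with certainty. Some distance before the block, the zinc finger pseudogene Znf41-ps stood at 59.2, 67.3 and 50.2 against 14.2, 17.1 and 19.7 in controls (1.73 ± 0.25; DESeq2 adjusted p = 0.000552).

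The block had an edge. Beyond Gm13157 the zinc finger gene Zfp933 stood at 335, 279 and 327 against 235, 264 and 386 in controls, and the groups overlapped. They also overlapped at Miip (309, 301 and 339.7 against 338, 369.5 and 279 in controls) and at Fv1, a retroviral restriction gene (49.2, 59.4 and 56.8 against 44.5, 64.8 and 48.7 in controls). The mitochondrial fusion gene Mfn2 was below all controls, at 2114, 2473 and 2255 against 3600, 2602 and 2586. In the next window, from 148 to 150 Mb, 0 of 29 genes tested were above all controls. The other mutants were set against the same controls, so their values are not independent of these. Gm13251 stood at 134 and 104 in HP1alpha_KO and 236 in HP1alpha_beta_KO, and 2610305D13Rik at 9.17 and 7.74 and 11.2. For both genes these values were below all 3 HP1alpha_gamma_KO livers and above all 3 controls.

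**Figure D2:**
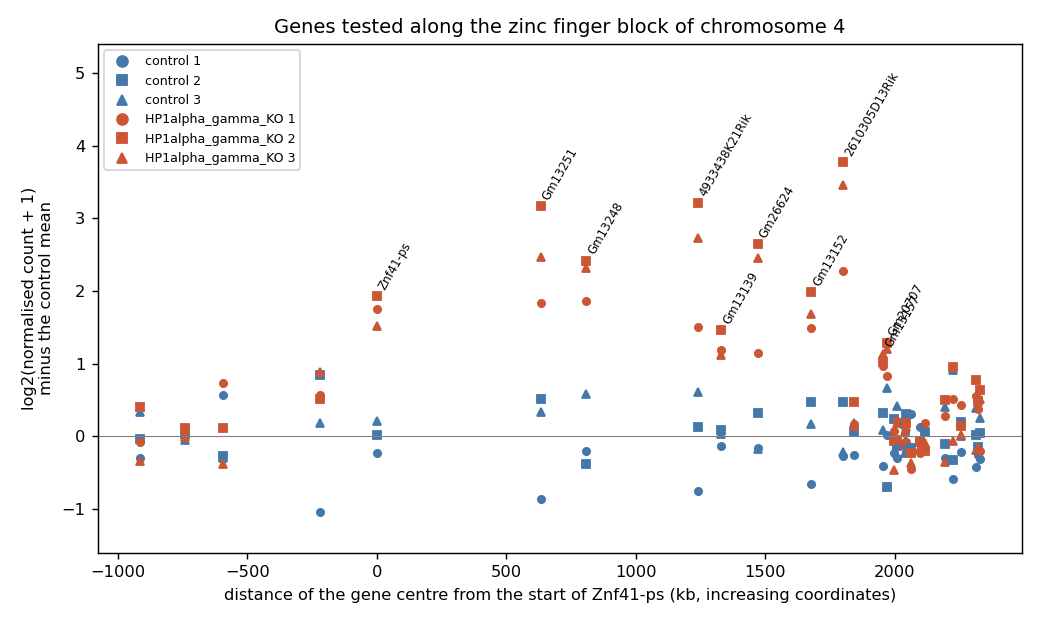
Genes tested along chromosome 4 are placed by the distance of their centre from the start of Znf41-ps in kb, and each marker is 1 liver, as log2(value + 1) minus the mean of the 3 control livers. Between 146 and 148 Mb, 9 of the 17 genes have all mutant markers above all control markers. Past Gm13157 the groups mix at Zfp933, Miip and Fv1, while Mfn2 has all mutant markers below all control markers.

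To read clusters whatever they did, all 2 Mb windows with at least 5 Zfp genes tested were counted. There were 16 with 133 Zfp genes, not counting genes with other symbols, so the chromosome 4 block is not among them. The median log2 difference was over 0 in 15 and ran from -0.12 on chromosome 7 (4 to 6 Mb) to 0.36 on chromosome 9 (22 to 24 Mb). In 4 windows no Zfp gene was above all controls, among them 0 of 12 on chromosome 17 from 32 to 34 Mb, and on chromosome 13 from 66 to 68 Mb it was 1 of 18. On chromosome 2 from 174 to 176 Mb, 2 of 19 genes of any kind were above and 2 below all controls, with a median of -0.07. In the adjoining window, from 176 to 178 Mb, 4 of 19 (21.1%) were above and 1 below, with a median of 0.15. Clusters were not tested against each other. The clusters described next are those with larger differences, chosen after the values were seen. On chromosome 12, from 18 to 20 Mb, both genes tested were above all controls and called by DESeq2, the protein-coding gene 5730507C01Rik at 58.3, 88.6 and 129 against 11.6, 18.1 and 30.9 and the noncoding RNA Gm5784 at 82.9, 70.7 and 149 against 6.23, 23.8 and 19.7. In the next window, from 20 to 22 Mb, 7 of 11 genes (63.6%) were above all controls with a median of 0.80, and DESeq2 called 0 of them. The zinc finger pseudogene Zfp125 stood there at 149, 173 and 254 against 69.4, 42.9 and 109.6, and it overlaps 3110053B16Rik on the same strand, at 111, 120 and 216 against 33.8, 38.1 and 94.6. On chromosome 17, from 20 to 22 Mb, 7 of 15 genes (46.7%) were above all controls by smaller steps, with a median of 0.27. Zfp52 stood at 42.8, 43.7 and 45.4 against 29.4, 26.7 and 21.5 and 2210404O09Rik (RefSeq Zfp995) at 81.1, 101 and 87.1 against 53.4, 58.1 and 45.0, while Zfp760 overlapped at 122, 202 and 265 against 198, 254 and 135. On chromosome 10, Zfp873, AU041133, Zfp938 and Gm4924 follow each other between 82048123 and 82422882. All 4 were above all controls, with log2 differences of 0.90, 1.03, 0.80 and 1.25, and DESeq2 called 0 of them. Past them the groups overlapped at 1190007I07Rik and Tdg. The pseudogene RP24-194K24.6 on chromosome 7 stood at 72, 102 and 117 against 16.01, 22.9 and 22.5 (2.18 ± 0.27; DESeq2 adjusted p = 5.83e-07), and at 111 in HP1alpha_beta_KO against 29.4 and 21.5 in HP1alpha_KO.

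The 3 genes of the Zfp list that DESeq2 called lie on chromosomes 9, 10 and 7, and each has another Zfp gene within 500 kb. Zfp433 ends at 81726686, shortly before the chromosome 10 genes above. Zfp84 lies in a window counted above (chromosome 7, 28 to 30 Mb). Zfp445 encodes a KRAB zinc finger protein that takes part in keeping the methylation of imprinted regions. It stood at 1611, 1610 and 1643 in controls and 2725, 3474 and 2884 in HP1alpha_gamma_KO, a log2 difference of 0.89 ± 0.11 (DESeq2 adjusted p = 4.82e-08). The 3 controls were nearly equal, and the lowest mutant was well above them. It stood at 1604 and 1933 in HP1alpha_KO and 2489 in HP1alpha_beta_KO. The next 2 genes tested along chromosome 9 were also above all controls, Zkscan7 at 451, 544 and 529.9 against 307, 301 and 222 (0.89 ± 0.16; DESeq2 adjusted p = 0.00203) and Zfp105 at 41.9, 41.5 and 59.6 against 17.8, 18.1 and 25.3 (1.18 ± 0.27; DESeq2 adjusted p = 0.139). On the other side, Tcaim overlapped at 635, 857 and 887 against 773, 692 and 832. Zfp433 on chromosome 10 stood at 307, 312 and 269 against 156, 181 and 159 (0.84 ± 0.13; DESeq2 adjusted p = 0.000504), and Zfp84 on chromosome 7 at 463, 461 and 398 against 278, 254 and 324 (0.63 ± 0.14; DESeq2 adjusted p = 0.0335). Against the direction of the Zfp list, Zfp91 stood below all controls at 2904, 3155 and 3342 against 3905, 3977 and 3646 (-0.30), and Zfp706 at 1417, 1869 and 1429 against 2306, 1916 and 1956 (-0.40). DESeq2 called 0 Zfp genes lower, and limma called 0 in either direction.

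Of the genes tested, 3 had 0 reads in every liver of 1 group. All were chosen after their values were seen, and folds are lower bounds against 3 reads in 1 library. Catsperg2, a subunit of the sperm calcium channel, had 0 reads in all 3 controls, in both HP1alpha_KO livers and in the HP1alpha_beta_KO liver. In HP1alpha_gamma_KO it stood at 10.9, 78.5 and 54.9, at least 16.8-fold higher (DESeq2 adjusted p = 1.45e-05, limma adjusted p = 0.364). Fmr1nb, an X-linked gene known from testis, stood at 33.8, 20 and 89.9 in controls and had 0 reads in all 3 HP1alpha_gamma_KO livers, at least 14.2-fold lower (DESeq2 adjusted p = 9.05e-06, limma adjusted p = 0.262). Fmr1nb was low too in HP1alpha_KO, at 1.84 and 10.3, but not in HP1alpha_beta_KO, at 109.5. The pseudogene Gm13456 stood at 8.89, 18.1 and 18.7 in controls and 16.4, 1057 and 749 in HP1alpha_gamma_KO, so that 2 mutant livers were far above the rest and 1 was among the controls. Ccdc11 stood at 17.3, 77.4 and 51.1 against 1.78, 6.67 and 11.2 and the long noncoding RNA 2410018L13Rik at 24.6, 17.95 and 37.9 against 0, 1.91 and 2.81. The third gene, the ribozyme RNA Rprl3, had 0 reads in all controls and stood at 0, 1.12 and 3940 in HP1alpha_gamma_KO, so that its mean rests on replicate 3 alone (limma adjusted p = 0.8). All of these genes have few reads or none in 1 group, so the size of each difference is uncertain.

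Among genes of liver function, Dpy19l3 had the smallest p on the higher side. It encodes an enzyme that attaches mannose to tryptophan in secreted proteins. It stood at 222, 189.5 and 297 in controls and 778, 1343 and 907 in HP1alpha_gamma_KO (2.08 ± 0.25; limma adjusted p = 0.262, DESeq2 adjusted p = 4.41e-11), and at 308 and 313 in HP1alpha_KO and 555 in HP1alpha_beta_KO. Rpp40, a protein of the ribonuclease P and MRP complexes, stood at 448, 985 and 651 against 131, 194 and 201 in controls (1.93 ± 0.31; DESeq2 adjusted p = 7.11e-07). Its HP1alpha_KO values of 156 and 173 lay within the controls, and HP1alpha_beta_KO stood at 364. Nipal1, a magnesium transporter that is also on the female-biased list read below, showed another order. It stood at 854, 435 and 545 against 121, 164 and 113 in controls (2.16 ± 0.27; DESeq2 adjusted p = 9.77e-10), and at 1330 and 409 in HP1alpha_KO, so that it was above the controls in all mutant livers.

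Growth and developmental genes were among the other leading genes on this side. The heparan sulfate proteoglycan Gpc3, a marker of fetal liver and of liver tumours, stood at 25.8, 22.9 and 24.4 in controls and 72, 55.0 and 60.6 in HP1alpha_gamma_KO (1.32 ± 0.21; DESeq2 adjusted p = 0.00969). The transcription factor Atoh8 stood at 408, 307 and 262 against 117, 142 and 161 in controls (1.20 ± 0.21; DESeq2 adjusted p = 0.000391), and the homeobox factor Meis1 at 215, 199.6 and 217 against 121, 145 and 141 in controls (0.63 ± 0.14; DESeq2 adjusted p = 0.0611). Gpc3 has low counts, but its controls differed little. Akap5, an anchor for protein kinase A, stood at 97.5, 138 and 149.5 against 38.3, 62.9 and 41.2 in controls, the metalloprotease Adamts6 at 104, 169 and 148 against 39.1, 66.7 and 49.6 in controls, and the kallikrein Klk1b4 at 108, 93.1 and 111 against 49.8, 55.2 and 65.6 in controls. DESeq2 called Akap5 and Adamts6 but not Klk1b4 (adjusted p = 0.0691). Klk1b4 belongs to a cluster of near copies. Mat1a, which makes the methyl donor S-adenosylmethionine and was called by DESeq2, is the most abundant gene in this direction with a call, at 103376, 88094 and 104513 against 62770, 76118 and 56570 (0.61 ± 0.18; DESeq2 adjusted p = 0.0357).

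Nox4 had the smallest p among lower genes with a mean of at least 50 in controls. Its product is an NADPH oxidase, a source of hydrogen peroxide in cells. The gene stood at 833, 640 and 848 in controls and 263, 172 and 125 in HP1alpha_gamma_KO (-2.10 ± 0.27; limma adjusted p = 0.269, DESeq2 adjusted p = 4.88e-09), 24.1% of the control mean. The highest mutant liver was far below the lowest control, and the other mutants were low too, at 363 and 350.1 in HP1alpha_KO and 146 in HP1alpha_beta_KO. The remaining members of its list, with subunits of NADPH oxidases and enzymes that remove peroxides, moved little. Of the list's 23 genes tested, 0 were above and 4 (17.4%, against 7% of all genes) below all controls, with a median of -0.11. Those 4 include Nox4, the small GTPase Rac1 at 3030, 3054 and 2950 against 3212, 3267 and 3371, and the peroxide-removing enzymes Gpx4 and Prdx3.

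The membrane and matrix genes on the lower side included several with large folds at modest counts. Susd4, a complement regulator, stood at 559, 146 and 299 in controls and 20.1, 55.0 and 21.8 in HP1alpha_gamma_KO (-3.28 ± 0.56; DESeq2 adjusted p = 7.11e-07), and Olfm3, a secreted olfactomedin, at 19.1, 26.9 and 26.5 against 189, 67.6 and 122 in controls (-2.23 ± 0.38; DESeq2 adjusted p = 6.44e-05). The collagen gene Col12a1 stood at 61.1, 58.3 and 69.1 against 112, 143 and 214 in controls, and the scavenger receptor gene Colec12 at 1123 ± 122 against 1801 ± 82.5 in controls (SD, n = 3). The 3 controls of Susd4 and Olfm3 were themselves far apart, and those of Colec12 close together. Fuz, needed for building cilia, stood at 95.7, 104 and 103 against 175, 180 and 158 in controls (-0.75 ± 0.14; DESeq2 adjusted p = 0.0208), with close replicates in both groups.

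**Figure D3:**
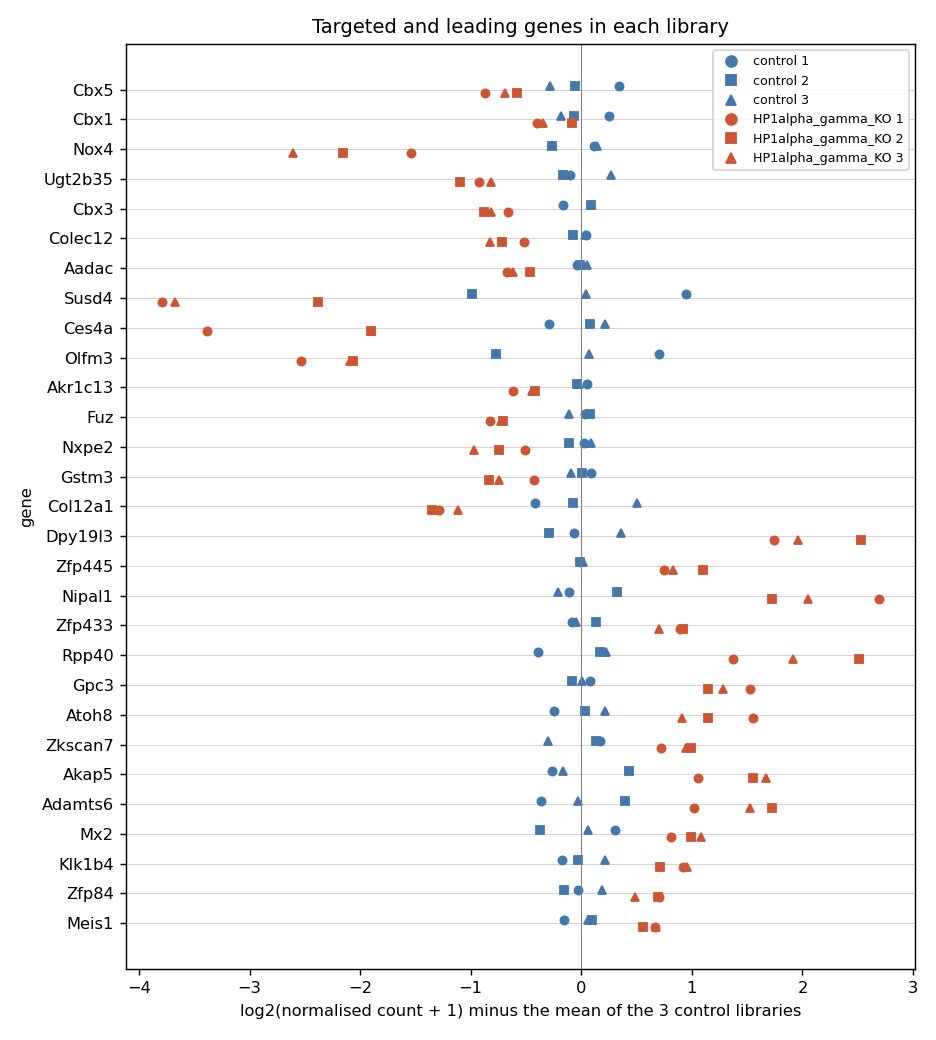
Each marker is 1 liver, as log2(value + 1) minus the mean of the 3 control livers, for Cbx5, Cbx1 and the leading genes on the lower and the higher side; marker shape gives the replicate and colour the group. The groups are apart for each gene shown except Cbx1, with Susd4 and Olfm3 showing the widest controls and Zfp445 the tightest.

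Several enzymes that handle drugs and other chemicals were on the lower side. Aadac, an esterase, stood at 14394, 14670 and 15260 in controls and 9245, 10687 and 9653 in HP1alpha_gamma_KO (-0.59 ± 0.10; DESeq2 adjusted p = 2.59e-05). Ugt2b35, which joins glucuronic acid to its substrates, stood at 3270, 2891 and 3519 against 5765, 5525 and 7463 in controls (-0.95 ± 0.14; DESeq2 adjusted p = 2.01e-05), and the carboxylesterase Ces4a at 29.2, 83 and 83.3 against 255, 331 and 365 in controls (-2.40 ± 0.41; DESeq2 adjusted p = 3.6e-06). For each of the 3 the groups were well apart. Of 51 drug-metabolism genes tested, 8 (15.7%, against 7% of all genes) were below and 2 above all controls, with a median of -0.20. That median was -0.07 without HP1alpha_gamma_KO replicate 1. The other gene of the list that DESeq2 called lower was Ugt1a9, at 1712, 1227 and 1723 against 2582, 2310 and 2967, and the 1 it called higher was Cyp2c38, at 2611, 1339 and 1033 against 453, 596 and 716 (1.41 ± 0.34; DESeq2 adjusted p = 0.00627). The aldo-keto reductases of the Akr1c cluster on chromosome 13 went mostly the same way. Akr1c13 stood at 1759, 2009 and 1975 against 2797, 2627 and 2654 and Akr1c19 at 905, 1190 and 1584 against 2472, 2680 and 1853, both called by DESeq2. Akr1c12 stood at 1399, 1678 and 1795 against 2186, 2040 and 1949, and Akr1c18 was the exception at 22.8, 12.3 and 22.7 against 10.7, 3.81 and 6.56. Reads may be shared between the copies within the Ugt2b, Cyp2c and Akr1c families.

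Genes of the NRF2 response were low as a list. NRF2 is a transcription factor that answers oxidants and electrophiles by raising glutathione synthesis, glutathione transferases and NADPH-making enzymes. Of 35 members tested, 25 had a lower and 10 a higher mean log2 value. Below all controls were 14 (40%), against 7% of all genes, and 1 was above, with a median of -0.20. The median stayed between -0.23 and -0.17 when any 1 liver was left out, and was -0.15 with equal totals. The mean of the members' centred log2 values was 0.11, 0.08 and 0.16 in controls and -0.14, -0.04 and -0.18 in HP1alpha_gamma_KO, without overlap. Limma called 0 of the 35 and DESeq2 called 3, all lower. Gstm3, a glutathione transferase, stood at 776, 586 and 621 against 1107, 1049 and 978 in controls (-0.67 ± 0.13; DESeq2 adjusted p = 0.0158). Ephx1, an epoxide hydrolase, stood at 5411, 6154 and 6879 against 8345, 8433 and 9243 in controls (-0.50 ± 0.12; DESeq2 adjusted p = 0.0437). Ugdh, which makes the UDP-glucuronic acid that glucuronosyltransferases use, stood at 1585, 2743 and 2027 against 4134, 3559 and 3834 in controls (-0.89 ± 0.19; DESeq2 adjusted p = 0.0181). Every mutant liver was below every control in all 3 genes. Without a call, the same held for Gclm, of glutathione synthesis, at 4443, 5062 and 4762 against 7004, 5924 and 6226, for the thioredoxin reductase Txnrd1 at 2789, 2932 and 3085 against 3755, 3515 and 3917, and for the sulfiredoxin Srxn1 at 672, 789.6 and 924 against 1009, 992 and 1049. The abundant glutathione transferase Gstp1 stood at 10326, 33833 and 34218 against 41685, 42124 and 40216, with replicate 1 far below the rest. G6pdx, which feeds the pentose phosphate pathway, was the exception above all controls, at 275, 201 and 185 against 110.3, 172 and 170.4. Not every member was low. The groups overlapped at Nqo1, with a log2 difference of 0.00, and at Osgin1 (0.32) and Cbr1 (0.22).

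The antioxidant response element, at which NRF2 binds, has the core TGACNNNGC. It was searched on both strands of the promoters of the 9907 genes tested that have a RefSeq entry, each 300 bases long, and found in 16.9% of them and in 11 of 30 NRF2 members (36.7%). The 11 members with the letters had a median log2 difference of -0.15 and the 19 without them -0.29. Both sets were thus low, and a match or its absence in this window says nothing of binding. The promoter of Ugdh holds 2 matches, 1 on each strand, in capitals below (RefSeq, GRCm38.p6, chr5:65435793-65436092, minus strand).
Ugdh: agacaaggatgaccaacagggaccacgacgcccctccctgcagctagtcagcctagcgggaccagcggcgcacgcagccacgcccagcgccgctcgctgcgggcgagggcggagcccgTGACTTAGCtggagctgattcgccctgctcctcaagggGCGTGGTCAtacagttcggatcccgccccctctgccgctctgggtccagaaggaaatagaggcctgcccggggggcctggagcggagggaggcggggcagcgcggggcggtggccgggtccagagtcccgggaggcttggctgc

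Most genes of the hepatocytes around the central vein, 26 of 34, had lower means in HP1alpha_gamma_KO. Pericentral hepatocytes carry out glutamine synthesis and much of drug metabolism, under Wnt signalling. Of the pericentral genes tested, 8 (23.5%) were below all controls, against 7% of all genes, and 1 was above, with a median of -0.22. Of 30 periportal genes 1 was below and 1 above, with a median of -0.02. The difference between the lists was not tested. Glutamine synthetase Glul, which marks the innermost layer, stood at 25258, 25800 and 25773 in controls and 19836, 18367 and 15365 in HP1alpha_gamma_KO (-0.53 ± 0.13; DESeq2 adjusted p = 0.0289). The glutamate transporter Slc1a2 of the same cells stood at 3550, 3491 and 2896 against 7050, 5688 and 4364 in controls (-0.76 ± 0.18; DESeq2 adjusted p = 0.0351). The controls of Glul differed from each other by far less than the mutants from the controls, and HP1alpha_KO was in the same range as the double mutant, at 16870 and 16226. Cyp1a2 stood at 6544, 13310 and 8763 against 16839, 14371 and 15411 and Cyp2e1 at 99983, 93767 and 102892 against 146482, 116115 and 115180, neither with a call. Notum, a Wnt inhibitor, was the member above all controls, at 939, 884 and 866 against 820.1, 775 and 831. The pericentral list shares Gstm3 with the NRF2 list. It shares Cyp1a2, Cyp2e1, Cyp2a5, Cyp2c29, Por and Aldh1a1 with the drug-metabolism list, so the 3 lists are not independent. In RNA from whole liver, fewer cells of a type and less RNA per cell cannot be told apart, here and for each cell type below.

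Genes that interferon switches on against viruses were mostly on the higher side. Of 57 tested, 54 had a higher mean, and the median log2 difference was 0.35. Above all controls were 11 (19.3%, against 6.56% of all genes) and below 0, and DESeq2 called Mx2 and Gbp3. The livers as a whole overlapped, however. The mean of the members' centred log2 values was 0.15, -0.47 and -0.20 in controls and -0.03, 0.18 and 0.37 in HP1alpha_gamma_KO, so control replicate 1 was above mutant replicate 1. The median was 0.13 without control replicate 2 and 0.50 without control replicate 1. Mx2, of a family of antiviral GTPases, is annotated as a polymorphic pseudogene, so its RNA need not give a working protein. It stood at 335, 378 and 404 against 235, 147 and 199 in controls (0.96 ± 0.19; DESeq2 adjusted p = 0.00634). The guanylate-binding protein Gbp3 stood at 627, 556 and 829.9 against 446, 351 and 391 in controls (0.75 ± 0.17; DESeq2 adjusted p = 0.0397), and Stat2, which carries the interferon signal to the nucleus, at 1795, 2131 and 1977 against 1635, 1382 and 1420 in controls (0.41 ± 0.11; DESeq2 adjusted p = 0.157). These 3 were apart in every liver. In HP1alpha_KO, Mx2 stood at 176 and 124 and Gbp3 at 371 and 418, within or below the range of the shared controls. Kupffer cell markers stand beside this list, since macrophages can answer interferon. Of 18, 14 had a higher mean, and the median of 0.20 was 0.07 without HP1alpha_gamma_KO replicate 1, and 0 of 18 were apart from the controls. Their summed level was 30193 to 32960 in controls and 32918 to 33727 in HP1alpha_gamma_KO. That sum includes the complement gene C6, also on the male-biased list, at 763, 7696 and 5506 against 7162, 4692 and 5389 in controls. The low C6 of mutant replicate 1 thus lowers its sum. The mean of the members' centred log2 values was 0.22, -0.08 and 0.06 in HP1alpha_gamma_KO and -0.09, -0.09 and -0.02 in controls. The markers' part in the interferon values was not tested.

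Interferon factors bind the response element of which GAAANNGAA is a part. These letters were found, on either strand, in 8.93% of the 9907 promoters and in 22 of 39 interferon-stimulated members with a promoter (56.4%). Members with the letters had a median log2 difference of 0.42, with 5 of 22 above all controls, and members without them 0.33, with 1 of 17. Gbp3 is shown as a member that was called and whose promoter holds 2 overlapping matches, both on the minus strand (capitals; RefSeq, GRCm38.p6, chr3:142559794-142560093, plus strand, entry 1 of 2).
Gbp3: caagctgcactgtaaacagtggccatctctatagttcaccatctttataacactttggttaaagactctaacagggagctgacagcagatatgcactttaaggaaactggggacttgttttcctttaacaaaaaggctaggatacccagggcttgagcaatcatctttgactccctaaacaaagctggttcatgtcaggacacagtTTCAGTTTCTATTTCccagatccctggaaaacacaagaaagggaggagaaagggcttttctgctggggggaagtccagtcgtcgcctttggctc

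Sex-biased liver genes had wide differences that rested largely on 1 liver. That liver, HP1alpha_gamma_KO replicate 1, had the Y-linked Ddx3y at 3799 and Xist at 5.47, as in a male. Growth hormone is secreted in pulses in males and more steadily in females, which sets these genes in the liver. Of 33 female-biased genes tested, 14 (42.4%, against 6.56% of all genes) were above all controls and 0 below, with a median of 1.48. Of 44 male-biased genes, 12 (27.3%, against 7% of all genes) were below and 2 above, with a median of -0.86. Without HP1alpha_gamma_KO replicate 1 the medians were 0.71 and -0.32, and without it and control replicate 1 they were 0.53 and -0.20. The female-biased mean of centred log2 values was 2.22, -0.19 and 0.44 in the mutants and -1.40, -0.20 and -0.88 in the controls, so mutant replicate 2 and control replicate 2 were nearly equal. Cyp2b9, a cytochrome P450, stood at 6684, 339.8 and 808 against 10.7, 134 and 101, and Cyp2a4 at 6455, 756 and 2833 against 48.0, 589 and 88.02. The gene Acnat2, of fatty acid conjugation, was more even, at 1136, 1000 and 997 against 155, 547 and 278 (1.86 ± 0.41; DESeq2 adjusted p = 0.00634), and so was the prolactin receptor gene Prlr, at 4807, 4715 and 3426 against 2368, 2363 and 3286. On the male-biased side, Nox4, Susd4, Ces4a and Ugt2b5 were called lower by DESeq2, Ugt2b5 at 10885, 17614 and 20195 against 28622, 29213 and 30919. Slco1a1, a transporter, stood at 8502, 27296 and 28006 against 30007, 31684 and 32711, with mutant replicate 1 far from the other 2. Against the list's direction, the urinary protein gene Mup21 stood at 2512, 25894 and 18132 against 2201, 2006 and 372 and Cib3 at 162, 522 and 154 against 79.2, 52.4 and 66.5 (DESeq2 adjusted p = 0.00627). Reads may be split between near copies in the Mup, Cyp2a and Cyp2b families. The female-biased list also holds Nipal1 and Trim24, and the male-biased list Gstp1, so their values above are not independent of these lists. Genes of growth hormone signalling itself had a median of 0.06, with 1 of 24, Prlr, above and 0 below all controls.

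**Figure D4:**
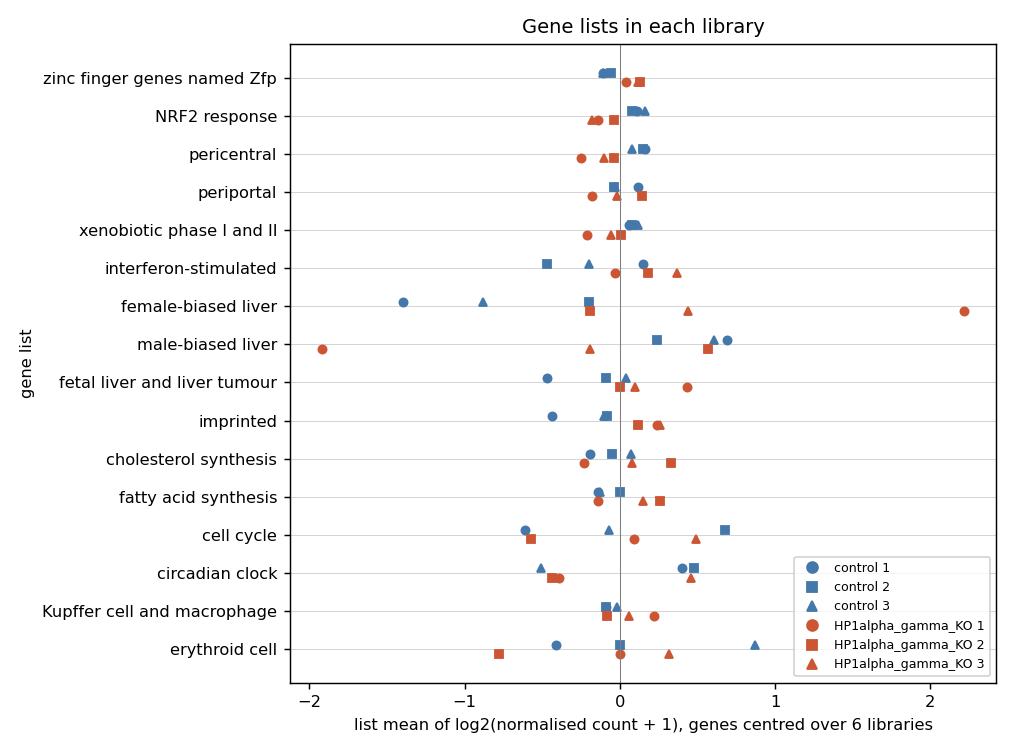
Each marker is the mean over the genes of a list of log2(value + 1), centred per gene over the 6 livers, for 1 liver; marker shape gives the replicate and colour the group. The zinc finger, NRF2, pericentral, xenobiotic (drug-metabolism) and imprinted lists have groups that do not overlap, and by a narrow margin so does the female-biased list. The sex-biased lists are pulled apart mainly by HP1alpha_gamma_KO replicate 1, and the circadian clock list splits the livers across the groups.

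Markers of fetal liver and liver tumours were above all controls in 7 of 33 members tested (21.2%, against 6.56% of all genes). None were below, and the median was 0.21. The median was 0.07 without HP1alpha_gamma_KO replicate 1 and -0.07 without it and control replicate 1, so its sign rested on those livers. Igf2bp2, an RNA-binding protein of fetal liver, stood at 93.9, 38.1 and 38.8 against 16.01, 28.6 and 27.2, and H19, an imprinted noncoding RNA, at 347, 14.6 and 28.4 against 0.889, 11.4 and 8.43. Both were highest in mutant replicate 1. The imprinted noncoding RNAs Meg3 and Rian of chromosome 12 had the reverse order of livers. Meg3 stood at 30.1, 132 and 121 against 21.4, 19.1 and 16.9 (1.99 ± 0.55; DESeq2 adjusted p = 0.0115) and Rian at 41.9, 213 and 193 against 31.1, 43.8 and 32.8 (1.73 ± 0.60; DESeq2 adjusted p = 0.0374), with replicates 2 and 3 high and replicate 1 at or near the control level. In HP1alpha_KO, Meg3 stood at 20.2 and 14.6 and Rian at 55.0 and 27.5, the first of the Rian values being above all controls and above mutant replicate 1. Of 22 imprinted genes tested, 2 were above all controls, Meg3 and H19, and 2 below, Gnas at 6378, 6343 and 6192 against 7593, 7378 and 7464 and Igf2r at 2919, 3125 and 3479 against 3770, 3878 and 3572.

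In lipid metabolism, 5 of 28 genes of fatty acid synthesis (17.9%, against 6.56% of all genes) were above all controls. The number below was 0, and the median was 0.07. Pnpla3, a lipase of lipid droplets, stood at 72, 134 and 72.9 against 17.8, 25.7 and 40.3 (1.71 ± 0.38; DESeq2 adjusted p = 0.0158). Fatty acid synthase Fasn stood at 18388, 24393 and 21083 against 12974, 15697 and 16860 and the elongase Elovl5 at 18811, 20556 and 18098 against 6665, 11899 and 16184, neither with a call. Of 26 cholesterol synthesis genes, 22 had a higher mean, with a median of 0.08, but 0 were apart from the controls. In bile acid synthesis and transport, 4 of 25 (16%, against 7% of all genes) were below and 0 above, with a median of -0.15. Among the 4 were the peroxisomal enzymes Hsd17b4 at 9658, 9858 and 10216 against 12681, 11698 and 11841 and Amacr at 4151, 3336 and 4364 against 4752, 4981 and 4794. Targets of PPARα and fatty acid oxidation had a median of -0.03, with 1 of 40 above and 1 below all controls.

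Cell division and damage lists showed little. Of 54 cell cycle genes, 0 were above and 2 below all controls, with a median of 0.02, and of 28 p53 targets 2 were above, with the same median. The death receptor gene Fas stood at 544, 559.7 and 475 against 386, 406 and 440.1 and Trp53inp1 at 9428, 7537 and 4644 against 4058, 2630 and 4617. Stress of the endoplasmic reticulum had a median of -0.06 with 1 of 36 above, acute phase proteins 0.19 with 1 of 36 above and 1 below, genes of glucose production and insulin response -0.02 with 1 of 25 above, and hepatocyte nuclear factors -0.09 with 1 of 30 above and 1 below. These shares are near or under the 6.56% and 7% of all genes.

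The circadian clock set livers apart without regard to genotype. The clock output gene Dbp stood at 2755, 3036 and 68.4 in controls and 334, 50.5 and 2818 in HP1alpha_gamma_KO. Arntl, the clock's activator, stood at 247, 916 and 80.4 against 26.7, 67.6 and 848 in controls. Control replicates 1 and 2 and mutant replicate 3 thus had high Dbp and low Arntl, and control replicate 3 and mutant replicates 1 and 2 the opposite. Per3 stood at 279.8, 105 and 1864 against 1300, 1425 and 66.5 in controls and Tef at 2176, 1372 and 6227 against 6280, 6324 and 1177 in controls, with the same livers high. Of 20 clock genes tested, 0 were apart between the groups, and the summed level of the list was 30147 to 32151 in the first 3 livers and 16875 to 17756 in the other 3. Both pairs of livers with consecutive animal numbers, control replicate 2 with mutant replicate 3 and control replicate 3 with mutant replicate 1, fell on the same side. The labels do not give the hour of dissection. Each group holds livers of both kinds, and the part of this difference in the spread of other genes was not tested.

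**Figure D5:**
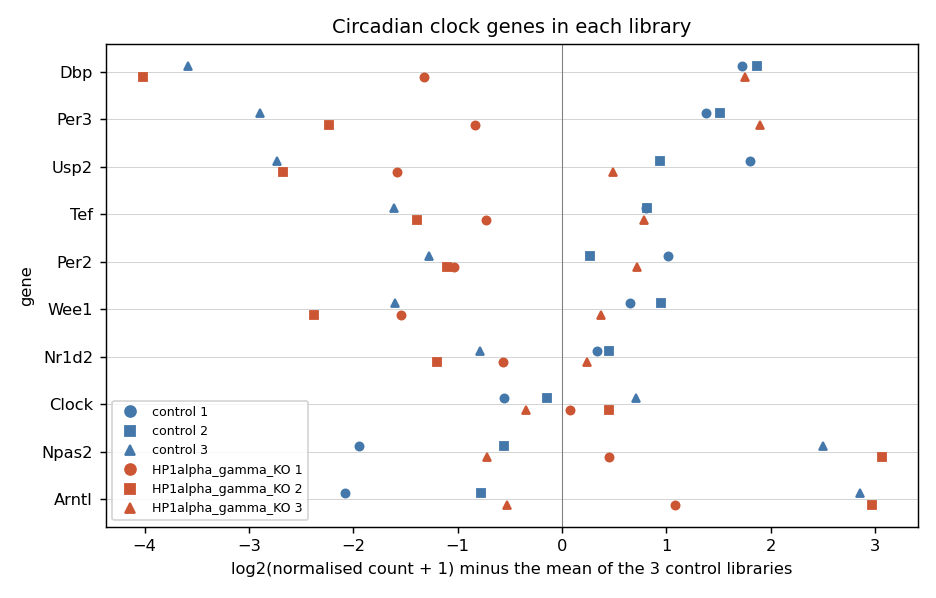
Each marker is 1 liver, as log2(value + 1) minus the mean of the 3 control livers, for 10 circadian clock genes; marker shape gives the replicate and colour the group. In Dbp, Per3, Usp2 and Tef, control replicates 1 and 2 and HP1alpha_gamma_KO replicate 3 sit on the high side, and in Arntl and Npas2 the same 3 livers sit on the low side.

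Markers of the cell types of the liver checked the tissue and its make-up. The hepatocyte list had all 11 genes tested, with a summed level of 3533251 to 4418407 in controls and 4179041 to 4358529 in HP1alpha_gamma_KO and a median of -0.04. Apob, of lipoproteins, and Cyp2e1 were below all controls, Apob at 450420, 506592 and 501157 against 572066, 580621 and 574510. Of 17 sinusoidal endothelial markers 1 was below all controls, the receptor gene Eng at 1033, 1135 and 1013 against 1767, 1250 and 1309, and their summed level was 22893 to 25399 in controls and 22283 to 24988 in mutants. Stellate cell markers had a median of 0.10 with 2 of 17 above, among them the collectin Colec11 at 1090, 1116 and 1043 against 720.4, 850.4 and 923. Of cholangiocyte markers 1 of 10 was above, Bicc1 at 143, 131 and 126 against 85.4, 101 and 97.4. Erythroid markers were lower in 10 of 11, by a median of -0.21, but differed widely within groups, with summed levels of 8434, 9572 and 19487 in controls and 8783, 6353 and 10488 in mutants. Alas2, of haem synthesis, was the member below all controls, at 748, 2627 and 2148 against 4710, 2839 and 4448. Neutrophil markers were mostly near the limit of reading, with 5 of 14 tested, and summed to 126 to 139 in controls and to 339, 97.6 and 245 in mutants. All 5 tested had a higher mean log2 value in mutants, with a median of 0.68, though mutant replicate 2 had the lowest sum. Of these only Cxcr2 was above all controls, at 13.7, 22.4 and 18.0 against 8.89, 11.4 and 10.3. Lymphocyte markers had 0 of 11 apart, and of pancreas and gut markers 3 of 10 were tested and 3 had 0 reads in all 6 livers. Their part in the differences above was not tested.

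Values in the other mutants, set against the same 3 controls, ordered the leading genes in different ways. Nipal1, Atoh8, Gpc3, Glul, Nox4, Susd4 and Olfm3 were on the same side of the control mean in both HP1alpha_KO livers as in the double mutant. Atoh8 stood at 314 and 213 in HP1alpha_KO, Gpc3 at 60.6 and 37.9, Susd4 at 116 and 238 and Olfm3 at 45.9 and 56.8. Zfp433 at 149 and 151, Mx2 at 176 and 124, Meis1 at 103 and 96.4 and Akap5 at 20.2 and 45.6 were not above the controls there. In the single HP1alpha_beta_KO liver, Zfp433 stood at 245, Mx2 at 179, Meis1 at 145 and Akap5 at 60.7. The differences between mutants were not tested here.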

How the data were processed

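Per the labels' protocols, Trizol RNA of frozen livers was freed of ribosomal RNA and made into stranded libraries. Tools in the submitters' processing notes are HTSeq 0.5.4p3, DESeq2 1.0.19, Bowtie2 2.1.0, TopHat2 2.0.10 and CASAVA 1.8.2, with build mm10 and no roles. Which annotation release, strand setting and filters went into the counting is not given in the sources used here. The deposited values are a signal, the reads per gene divided by 1 size factor per library by the authors, as the values themselves show: 100% of them became whole reads when multiplied back, at a tolerance of 0.1 read. Those recovered reads were used for edgeR 4.0.16 and DESeq2 1.42.0.

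The comparison was fitted on log2(value + 1) with limma 3.58.1 under R 4.3.3, its variance prior following the mean, for the 3 control and 3 HP1alpha_gamma_KO libraries, for genes with a mean of at least 10, leaving 4 residual degrees of freedom. A log2 difference on this scale understates the change of genes with few reads. Errors are SE of that fit. The limma, edgeR and DESeq2 fits in their main settings were run on simulated counts, and the alternative settings were not. Because the unit is not a count, limma is the main test. P-values measure the spread between these livers, whose litters and batches the labels do not give. The members and lists were chosen with earlier results of these data known. There were 24 pathway lists and 9 lists of cell type markers. Genes named are the targeted genes, up to 14 per direction with the smallest unadjusted p, groups that do not overlap and a higher-group mean of 50 or more, up to 3 members per list and direction, and genes within 2 Mb of Cbx5 or Cbx3 with an unadjusted p under 0.05. Further genes are named for their place or role, after their values were seen, and 1 gene that met the rule is not reported here. Gene positions are from GENCODE M21 (GRCm38), in which 22257 of 22701 genes (98.0%) had an entry. Promoters are from RefSeq, matched by symbol or a unique synonym, and 9907 genes tested had one.

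Alternatives were pseudocounts of 0.5 and 5, no filter and a mean of 50, TMM and equal-total scaling, no trend, robust shrinkage, array weights, all 9 libraries, a term for runs of neighbouring animal numbers, edgeR, DESeq2, and leaving out livers. DESeq2 with livers left out was added after the data were seen. Summaries used Python 3.11.15 with pandas 2.3.3 and numpy 2.4.6.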

Additional observations from a re-analysis of the deposited data

How the results depend on the processing

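The count of 0 limma calls held under every alternative scaling, pseudocount, filter, trend setting, weighting and covariate run with all 3 livers per group, and with edgeR. It became 76 with DESeq2. With 1 liver left out the limma count was 0 to 1, the 1 being the pseudogene Rpl3-ps1 without control replicate 3, and DESeq2 called 38, 79 and 92 genes without control replicates 1, 2 and 3, and 89, 64 and 81 without HP1alpha_gamma_KO replicates 1, 2 and 3. Without control replicate 1 and HP1alpha_gamma_KO replicate 1 together, limma called 2 pseudogenes (Gm13456 and Rps3a3) and DESeq2 80 genes. There were 912 genes whose groups do not overlap, higher in HP1alpha_gamma_KO, and 973 genes whose groups do not overlap, lower in it. With equal totals these were 1240 and 569. With 1 liver left out they were 1455 to 1705 and 1554 to 1915, and with both of those livers left out 2430 and 2571, since fewer livers separate more easily. The 29 targeted and leading genes kept their sign in every setting run, and DESeq2 called 25 of them. Of all 203 genes followed, 34 changed sign in at least 1 setting, each without a call. Of the 33 list medians, 21 changed sign in at least 1 setting, and the zinc finger, NRF2, pericentral, interferon and sex-biased lists did not. A block by runs of neighbouring animal numbers (control replicate 3 with mutant replicates 1 and 2, and control replicate 2 with mutant replicate 3) called 0 genes, with 672 at an unadjusted p under 0.05. It leaves control replicate 1 without a partner, so that liver drops out of the difference, and the labels do not say that neighbouring numbers share a litter or day. Depth limits the genes with few reads, among them most of the chromosome 4 block.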
